A study of Mus musculus with 12 samples.

Results

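Cd8a, Cd8b1, Klrk1, Klrc1, Klre1, Klrd1, Klrg1, Ncr1, Eomes and Nkg7 are 10 mouse genes that mark CD8 T cells and natural killer (NK) cells. Their RNA was followed here on arrays of sorted regulatory T cells (Tregs), a CD4 cell type that restrains other immune cells. They are 10 of the 18193 genes that the platform annotation names for these arrays. All probe sets annotated to them were taken, 16 of the 45037 probe sets that are not controls, and granzymes were left out. The test took in every probe set with a signal at or over the 40th percentile of an array on 3 arrays or more. This kept 31235 probe sets in all and 15 of the 16, at least 1 for each of the 10 genes. The cells came from 4 genotypes with 3 arrays each: the knockout of both Ebi3 and Il10 (DKO), the Il10 knockout (Il10_KO), the Ebi3 knockout (Ebi3_KO) and wild type (WT). They were purified by flow cytometry and used fresh and untreated. The labels put the arrays in 3 batches that equal the replicate number, with all 4 genotypes once in each batch. Strain, age, allele, pooling and the sort gate are not given in the sources used here, nor whether replicates are separate mice, so p-values measure the spread between these arrays, which may be technical.

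CD8 alpha and CD8 beta, the products of Cd8a and Cd8b1, form the coreceptor that binds MHC class I on killer T cells, and CD8 alpha pairs with itself on some other cells. NK cells read their targets through receptors of the C-type lectin family (the Klr genes) and the natural cytotoxicity receptor NKp46 (Ncr1), which balance activating against inhibitory signals. Klrd1 encodes CD94, which pairs with NKG2A, the product of Klrc1, to form an inhibitory receptor for Qa-1, while Klrk1 encodes the activating receptor NKG2D. Conventional Tregs lack most of these molecules, although KLRG1 is known from a subset of differentiated Tregs in mice.

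The arrays of the 3 batches stood apart before any question about genotype. Signals below are MAS5 signals recovered from the deposited log values. The array medians lay between 59.3 and 89.1 and the 40th percentiles between 35.5 and 52.8. The probe set of Foxp3, the Treg lineage factor, read 4945.3 to 6301.1 in batch 3, 5900.4 to 7955.0 in batch 2 and 5427.2 to 7361.9 in batch 1. Markers of myeloid cells and neutrophils were higher in batch 3. The summed signal of 7 myeloid markers was 21591 to 40331 in batch 3, against 2213 to 4334 in batch 2 and 2885 to 3795 in batch 1, and that of 7 neutrophil markers was 4999 to 15375, against 1284 to 3673 and 1217 to 4556. All 6 tested myeloid markers and 6 of 7 neutrophil markers passed as higher in batch 3 against either other batch. B cell markers summed to 3271 to 10591 in batch 3, 1405 to 2510 in batch 2 and 2837 to 5777 in batch 1. Of 7 tested, 1 passed as higher in batch 3 against batch 1 and 5 against batch 2. Dendritic cell markers summed to 1187 to 2571 in batch 3, 580 to 712 in batch 2 and 371 to 680 in batch 1. Of 7 tested, 3 passed as higher in batch 3 against batch 1 and 2 against batch 2. T cell sums were closer, at 39432 to 46781 in batch 3, 47370 to 53416 in batch 2 and 44111 to 46083 in batch 1. Among 6 tested T cell markers, 0 passed as higher and 2 as lower in batch 3 against batch 1. Against batch 2, 1 passed as higher and 1 as lower, the latter Cd28 (-1.23). Erythroid sums overlapped between batches, and 0 of 3 tested markers passed as higher in batch 3. The gamma delta T cell sum held only Sox13 and Blk, and Blk is also in the B cell list, so that sum is not read. The 9 Treg markers summed to 52465 to 62613 in batch 3, 70598 to 79838 in batch 2 and 74385 to 77404 in batch 1. They did not all move alike. In batch 3 against batch 1, 6 of the 9 passed as lower and 0 as higher. Against batch 2, 3 passed as lower and 2 as higher, namely Tnfrsf18 (log2 difference 0.64) and Izumo1r (0.49). Foxp3 passed in neither comparison. Shares over all tested probe sets are given below. The Ebi3 probe set was at 15.2 to 72.5 in DKO, 1062.5 to 2057.3 in Il10_KO, 3.0 to 39.5 in Ebi3_KO and 1159.0 to 1727.8 in WT. The Il10 probe set, at 1016.7 to 2639.6 in DKO, 1027.8 to 2038.2 in Il10_KO, 574.4 to 2384.6 in Ebi3_KO and 184.5 to 2939.8 in WT, does not separate the labels. The labels do not say which stretch of Il10 was removed or whether the probe set lies in it, so the arrays are grouped by Il10 genotype as labelled.

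**Figure D1:**
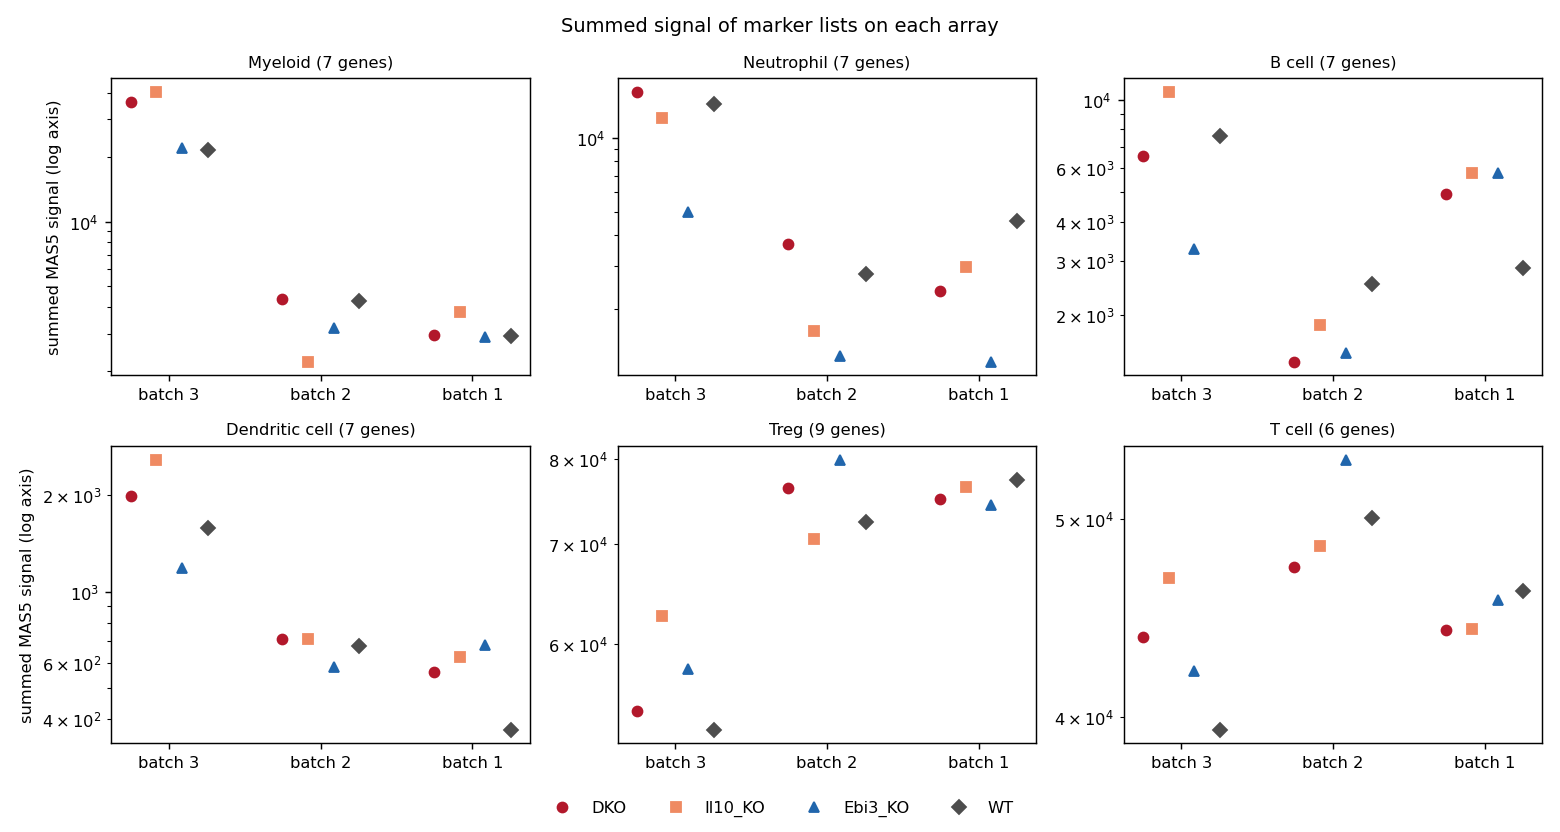
Summed MAS5 signal (vertical axis, log scale) of 6 marker lists on each of the 12 arrays, by batch (horizontal axis) and genotype (symbol). The 4 myeloid sums of batch 3 (21591 to 40331) lie above all 8 of batches 2 and 1, whose highest is 4334, and the 4 Treg sums of batch 3 lie below all others.

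Most of the CD8 T and NK genes were higher in batch 3 than in both other batches. Fitted with genotype in the model (limma, on log2 of signal plus 20, Benjamini-Hochberg adjustment over all tested probe sets), 11 of the 15 tested probe sets passed as higher in batch 3 against batch 1 and 0 as lower. Of all tested probe sets 28.7% passed in that comparison, 10.2% as higher and 18.5% as lower. Against batch 2, 11 of 15 passed as higher and 0 as lower, where 21.0% of all probe sets passed, 11.0% as higher and 9.98% as lower. These are counts of probe sets, and Cd8a and Eomes each enter them with more than a single probe set. By gene, Klrk1 did not pass against batch 1, Klrc1 did not pass against batch 2, and Klrg1 and Ncr1 passed against neither. The median log2 difference of the 15 was 1.257 against batch 1, beside -0.156 over all probe sets, and 1.154 against batch 2, beside -0.009. In 7 of the 15, every array of batch 3 lay above every array of batches 2 and 1, an arrangement that 4.15% of all tested probe sets show. By the test of any difference between batches 13 of 15 passed, beside 41.8% of all. A probe set could pass the filter on low values through batch 3 alone. The filter was therefore repeated on the mean over all 12 arrays, an alternative chosen after seeing the data. It kept 15 members and called 11 against each batch. That mean holds the batch 3 signal too, so the repeat cannot remove this possibility. Ncr1, for example, averaged 93.7 in batch 3, 33.4 in batch 2 and 43.0 in batch 1. With no filter on low values, 10 of 16 member probe sets passed as higher against batch 1, beside 2939 of all 45037. Against batch 2, 11 of 16 passed as higher, beside 3097 of 45037. Markers of myeloid cells and neutrophils moved with these genes in the same direction, and their part in the result was not tested. In bulk arrays, more cells of a type and more RNA per cell cannot be told apart.

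**Figure D2:**
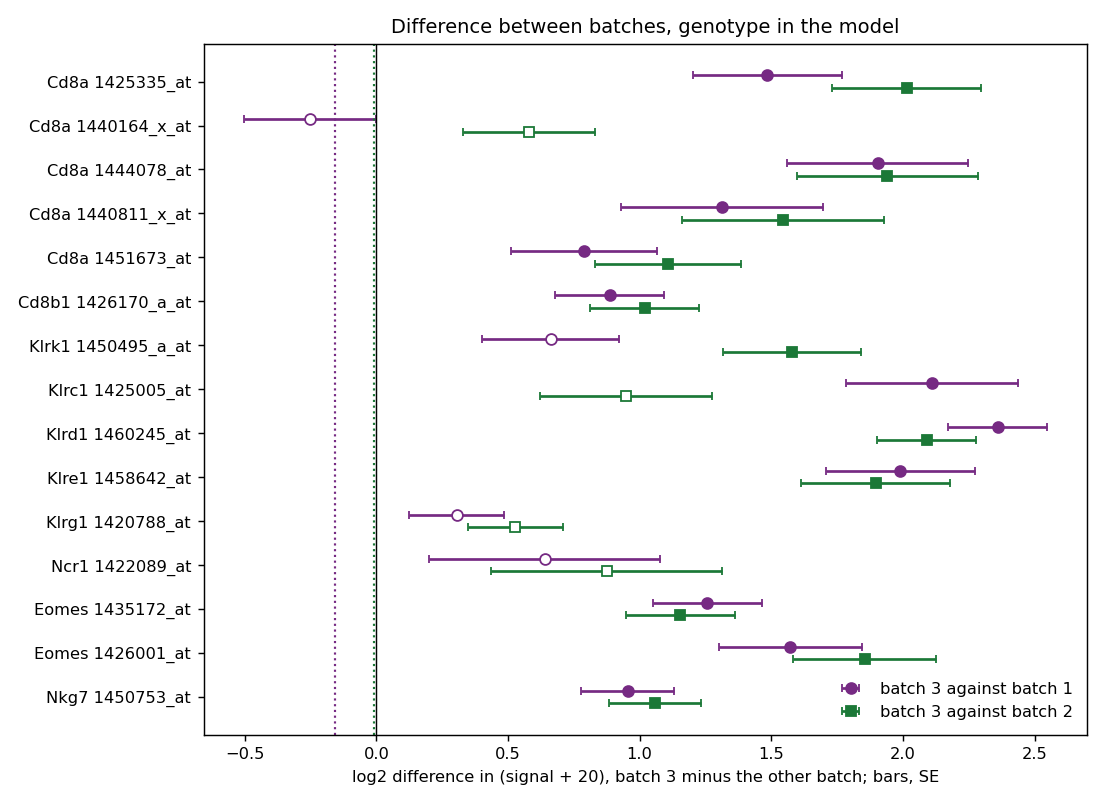
Log2 difference in signal plus 20 (horizontal axis) of each of the 15 tested probe sets, batch 3 minus batch 1 (circles) and batch 3 minus batch 2 (squares), with bars of 1 SE. Filled symbols passed the threshold, 11 in each comparison, and dotted lines mark the medians over all tested probe sets (-0.156 and -0.009).

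The coreceptor gene Cd8a has 5 probe sets, of which 4 behaved alike. On the probe set of highest mean signal (1425335_at), batch 3 read 553.3 in DKO, 654.2 in Il10_KO, 185.8 in Ebi3_KO and 465.8 in WT. In batch 2 it read 93.8 in DKO, 74.0 in Il10_KO, 87.5 in Ebi3_KO and 105.8 in WT. Batch 1 gave 188.7 in DKO, 114.0 in Il10_KO, 135.5 in Ebi3_KO and 124.5 in WT. So 3 of the 4 batch 3 arrays were above all others, and the Ebi3_KO array of batch 3 lay just below the DKO array of batch 1. The log2 difference was 1.49 ± 0.283 (SE; adjusted p = 0.0016) from batch 1 and 2.02 ± 0.283 (adjusted p = 0.000341) from batch 2. A second probe set, 1444078_at, read 150.8 to 423.3 in batch 3, against 45.0 to 89.9 in batch 2 and 33.9 to 100.3 in batch 1, with no overlap. It differed by 1.90 ± 0.344 (adjusted p = 0.00112) from batch 1 and 1.94 ± 0.344 (adjusted p = 0.00155) from batch 2.

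The other 3 Cd8a probe sets had low signals or shared probes. 1440811_x_at read 101.9 to 164.1 in batch 3, 9.1 to 89.1 in batch 2 and 8.2 to 66.7 in batch 1, and passed against both. The call against batch 1 was lost without DKO replicate 1, DKO replicate 3, Il10_KO replicate 1 or WT replicate 3 (adjusted p = 0.0616 to 0.103), and that against batch 2 without DKO replicate 3 or WT replicate 2 (adjusted p = 0.0579 and 0.0562). 1451673_at averaged 107.4 ± 39.3 (SD, n = 4) in batch 3, 37.4 ± 8.9 in batch 2 and 53.6 ± 24.1 in batch 1. It passed by 1.11 against batch 2 (adjusted p = 0.012) and by 0.79 against batch 1 (adjusted p = 0.0483). The call against batch 1 was lost with no filter on low values (adjusted p = 0.0851), and also when any of 9 of the 12 arrays was left out (adjusted p up to 0.162, without WT replicate 3). Those 9 were all but DKO replicate 2, Il10_KO replicate 1 and Il10_KO replicate 2. The call against batch 2 was lost without WT replicate 3 (adjusted p = 0.0526). 1440164_x_at went its own way, at 227.2 ± 40.4 in batch 3, 151.1 ± 57.2 in batch 2 and 281.5 ± 91.9 in batch 1 (SD, n = 4 each). Its log2 difference from batch 1 was -0.25 ± 0.251 (adjusted p = 0.489), and it turned positive, at 0.04, without WT replicate 1, the array with its highest signal (405.1). Without that array it passed against batch 2 (0.58, adjusted p = 0.0479; adjusted p = 0.122 with it). The suffix x_at marks probe sets in which some probes match other sequences as well.

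Cd8b1, which encodes the chain that restricts the coreceptor to conventional CD8 T cells, has 1 probe set. It read 508.3 in DKO, 697.2 in Il10_KO, 348.3 in Ebi3_KO and 542.1 in WT in batch 3. In batch 2 the values were 204.8 in DKO, 217.1 in Il10_KO, 280.8 in Ebi3_KO and 270.3 in WT, and in batch 1 they were 228.6, 253.8, 231.1 and 373.6 for the same genotypes. Again 3 of 4 batch 3 arrays lay above all others, and the Ebi3_KO array was below the WT array of batch 1. The difference was 0.89 ± 0.208 (adjusted p = 0.00604) from batch 1 and 1.02 ± 0.208 (adjusted p = 0.00378) from batch 2. Cd8b1 was thus measured well above the 40th percentile on all 12 arrays, at 204.8 or more, in batches 2 and 1 as well.

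**Figure D3:**
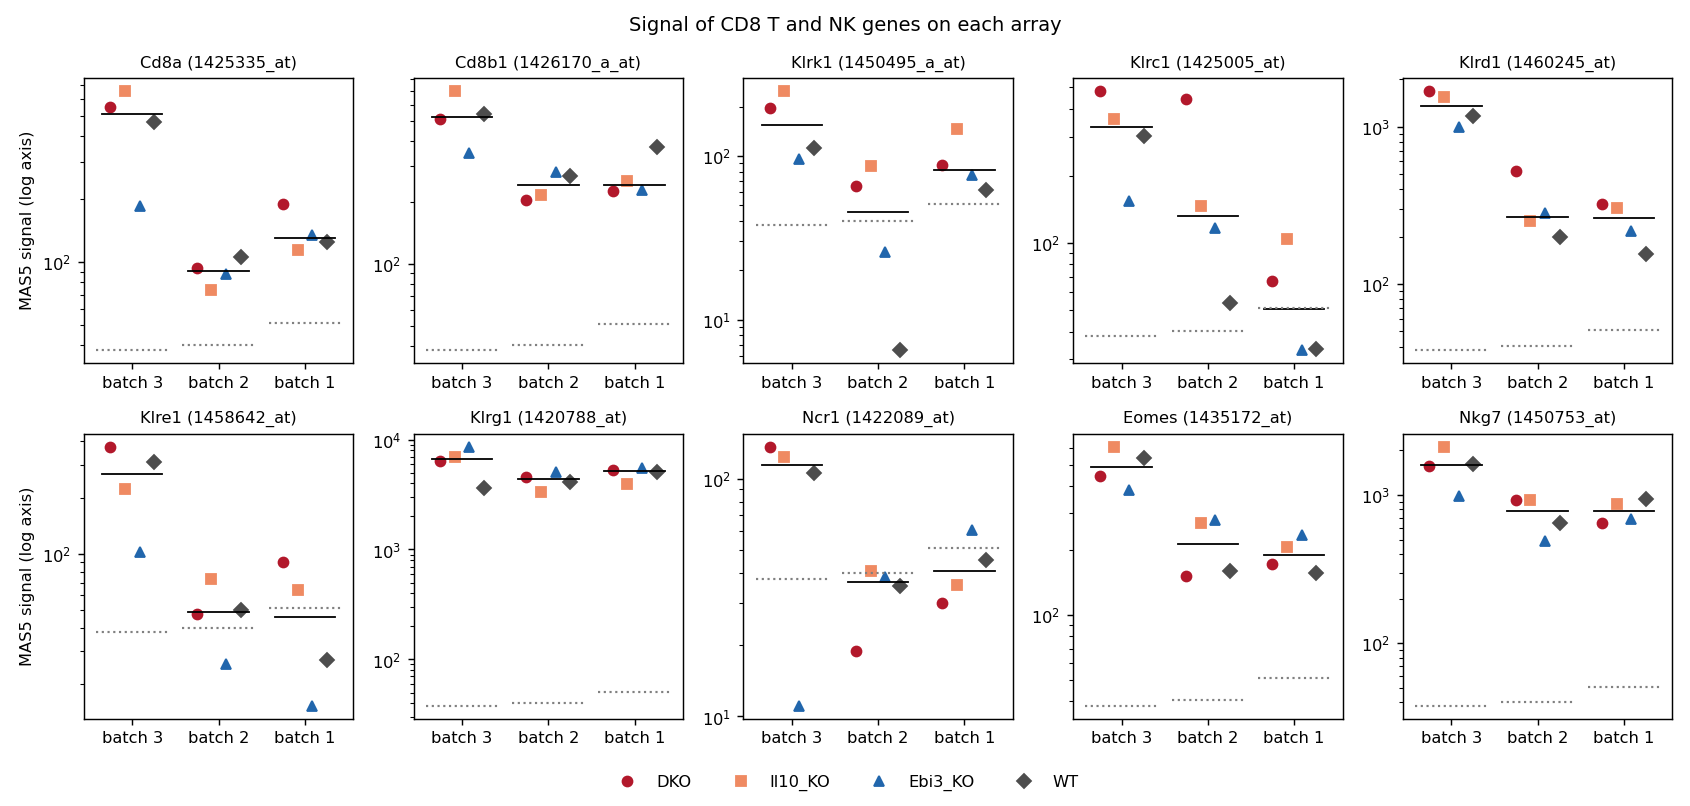
MAS5 signal (vertical axis, log scale) of 1 probe set per gene, the one of highest mean signal, on each of the 12 arrays by batch (horizontal axis) and genotype (symbol). Solid lines are batch medians and dotted lines the mean 40th percentile of the arrays of that batch; Klrd1, Klre1, Eomes and Nkg7 show no overlap between batch 3 and the other batches.

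Klrd1 (CD94) had the largest step between batches among these genes in both comparisons. Batch 3 read 1673.4 in DKO, 1547.0 in Il10_KO, 1000.5 in Ebi3_KO and 1168.8 in WT. The values were 525.8 in DKO, 252.2 in Il10_KO, 282.1 in Ebi3_KO and 198.1 in WT in batch 2. They were 321.8 in DKO, 305.5 in Il10_KO, 218.4 in Ebi3_KO and 154.7 in WT in batch 1. The lowest batch 3 array stood above the highest of the others, and the difference was 2.36 ± 0.188 (adjusted p = 3.79e-06) from batch 1 and 2.09 ± 0.188 (adjusted p = 1.55e-05) from batch 2.

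Its partner Klrc1 (NKG2A) followed a different course over the batches. On probe set 1425005_at it read 479.0 in DKO, 360.0 in Il10_KO, 154.6 in Ebi3_KO and 302.3 in WT in batch 3. Batch 2 held 440.7 in DKO, 146.9 in Il10_KO, 116.1 in Ebi3_KO and 53.5 in WT, and batch 1 held 67.3, 104.4, 33.0 and 33.4 for the same genotypes. The DKO array of batch 2 reached the level of batch 3, so the batches overlapped. The difference was 2.11 ± 0.326 from batch 1 (adjusted p = 0.000353), and 0.95 ± 0.326 from batch 2, which did not pass (adjusted p = 0.0546). It passed without DKO replicate 2 (1.29, adjusted p = 0.014), DKO replicate 1 (adjusted p = 0.0434) or WT replicate 1 (adjusted p = 0.0457). The other Klrc1 probe set, 1426182_a_at, read 33.6 or less on all arrays, was below the 40th percentile throughout and was not tested.

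Klre1 encodes a lectin-like receptor of mouse NK cells that has both activating and inhibitory partners. In batch 3 it read 373.8 in DKO, 222.6 in Il10_KO, 101.8 in Ebi3_KO and 309.2 in WT. The ranges were 25.5 to 73.3 in batch 2 and 15.3 to 89.9 in batch 1, each with its lowest value in Ebi3_KO. With no overlap, the difference was 1.99 ± 0.284 (adjusted p = 0.000201) from batch 1 and 1.90 ± 0.284 (adjusted p = 0.000515) from batch 2. The signal of Klre1 was at or above the 40th percentile of the array on 9 arrays.

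Klrk1 (NKG2D) read 196.6 in DKO, 248.2 in Il10_KO, 95.4 in Ebi3_KO and 111.9 in WT in batch 3. It read 65.7 in DKO, 86.9 in Il10_KO, 25.7 in Ebi3_KO and 6.5 in WT in batch 2. In batch 1 it read 87.9 in DKO, 145.2 in Il10_KO, 76.2 in Ebi3_KO and 62.3 in WT. Batches 3 and 1 overlapped, and the difference between them (0.66 ± 0.261) did not pass (adjusted p = 0.0746), whereas that from batch 2 did (1.58 ± 0.261, adjusted p = 0.000997). The difference from batch 1 passed without WT replicate 2 (adjusted p = 0.0447) and after quantile normalization (1.01, adjusted p = 0.0127). These 4 genes lie together in the NK gene complex on chromosome 6 of the mouse, where Klre1, Klrd1 and Klrk1 follow each other and Klrc1 comes after Klrc3 and Klrc2. Cd8b1 and Cd8a are neighbours elsewhere on the same chromosome.

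Klrg1 stood out by its level. This inhibitory receptor for cadherins read 6395.2 in DKO, 6946.3 in Il10_KO, 8561.2 in Ebi3_KO and 3613.4 in WT in batch 3. Batch 2 gave 4598.9 in DKO, 3300.5 in Il10_KO, 5082.1 in Ebi3_KO and 4096.0 in WT, and batch 1 gave 5305.3, 3970.0, 5465.0 and 5114.5 for the same genotypes. On every array it lay between the percentiles 94.4 and 98.2 of the array's signals. The WT array of batch 3 was the next to lowest of the 12, so the batches overlapped. Neither the difference from batch 1 (0.30 ± 0.179, adjusted p = 0.227) nor that from batch 2 (0.53 ± 0.179, adjusted p = 0.0519) passed. Without WT replicate 3 both did, at 0.56 (adjusted p = 0.00823) and 0.78 (adjusted p = 0.00179). The difference from batch 2 also passed without WT replicate 1 (adjusted p = 0.0248) and after quantile normalization (adjusted p = 0.0406).

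Ncr1 (NKp46), the receptor held to define NK cells most closely among these genes, was near the detection limit. It read 135.8 in DKO, 122.9 in Il10_KO, 11.1 in Ebi3_KO and 105.1 in WT in batch 3, against 18.8 to 40.9 in batch 2 and 29.9 to 60.6 in batch 1. In all, 3 of the batch 3 arrays lay above the 8 others and the Ebi3_KO array was the lowest of all 12. With that spread the differences of 0.64 ± 0.439 from batch 1 (adjusted p = 0.304) and 0.88 ± 0.439 from batch 2 (adjusted p = 0.183) did not pass. Without Ebi3_KO replicate 3 they were 1.27 (adjusted p = 0.0102) and 1.51 (adjusted p = 0.0066), and both passed. Its signal was at or above the 40th percentile of the array on 5 arrays.

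Eomes, a T-box transcription factor of NK cells and of memory CD8 T cells, separated batch 3 from the rest on both of its probe sets. 1435172_at read 445.0 in DKO, 605.7 in Il10_KO, 382.4 in Ebi3_KO and 536.4 in WT in batch 3, against 151.6 to 276.4 in batch 2 and 157.1 to 237.0 in batch 1. The difference was 1.26 ± 0.206 (adjusted p = 0.000553) from batch 1 and 1.15 ± 0.206 (adjusted p = 0.00162) from batch 2. 1426001_at averaged 256.0 ± 51.1 in batch 3, 61.0 ± 36.8 in batch 2 and 73.8 ± 23.4 in batch 1 (SD, n = 4 each), and it passed by 1.57 and 1.85 log2 units.

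Nkg7, a membrane protein of cytotoxic granules needed for their release, read 1574.9 in DKO, 2112.3 in Il10_KO, 989.5 in Ebi3_KO and 1632.0 in WT in batch 3. Batch 2 ranged from 488.5 to 929.7 and batch 1 from 645.7 to 937.4, both below every batch 3 array. The difference was 0.95 ± 0.175 (adjusted p = 0.00124) from batch 1 and 1.06 ± 0.175 (adjusted p = 0.001) from batch 2. Within batch 3, the Ebi3_KO array was the lowest of the 4 for 12 of the 15 tested probe sets, and the exceptions were Klrg1, where it was the highest, and 2 others. It was the lowest of the 4 for 23.7% of all tested probe sets. Its sums were the lowest of batch 3 for neutrophil markers too (4999, beside 12023 to 15375 on the other arrays), for B cell markers (3271, beside 6565 to 10591) and for dendritic cell markers (1187, beside 1579 to 2571). Its myeloid sum (22039) was not the lowest, as the WT array had 21591. The part of these markers in the result was not tested.

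Promoter sequences are shown to set the coreceptor gene beside genes of NK receptors and the granule protein, each of which passed as higher in batch 3 against at least 1 other batch. They run from 250 bases before to 50 bases after the transcription start in RefSeq (mouse GRCm38.p6), 5′ to 3′ on the gene's strand, and a promoter was found for 7 of the 10 genes. Capitals mark 2 motifs searched on both strands, the core of RUNX factors (TGTGGT or ACCACA) and a T-box core (GTGTGA or TCACAC). Klrk1 lies at chr6:129623815-129624114 on the minus strand, Klrc1 at chr6:129678924-129679223 on the minus strand, the upstream of the Klre1 starts at chr6:129577963-129578262 on the plus strand, Nkg7 at chr7:43436888-43437187 and Cd8a at chr6:71373177-71373476, both on the plus strand.
Klrk1: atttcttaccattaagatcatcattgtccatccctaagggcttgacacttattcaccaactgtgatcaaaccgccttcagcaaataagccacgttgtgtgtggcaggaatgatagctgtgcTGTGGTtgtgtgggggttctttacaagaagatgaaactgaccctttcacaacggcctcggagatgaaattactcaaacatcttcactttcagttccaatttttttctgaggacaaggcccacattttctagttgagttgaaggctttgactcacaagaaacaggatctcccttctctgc
Klrc1: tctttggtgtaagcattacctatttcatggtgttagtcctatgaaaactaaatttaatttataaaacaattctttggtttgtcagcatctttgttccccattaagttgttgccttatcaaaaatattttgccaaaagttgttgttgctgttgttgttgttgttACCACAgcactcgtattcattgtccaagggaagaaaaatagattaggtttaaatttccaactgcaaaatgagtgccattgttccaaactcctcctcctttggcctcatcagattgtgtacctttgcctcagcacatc
Klre1: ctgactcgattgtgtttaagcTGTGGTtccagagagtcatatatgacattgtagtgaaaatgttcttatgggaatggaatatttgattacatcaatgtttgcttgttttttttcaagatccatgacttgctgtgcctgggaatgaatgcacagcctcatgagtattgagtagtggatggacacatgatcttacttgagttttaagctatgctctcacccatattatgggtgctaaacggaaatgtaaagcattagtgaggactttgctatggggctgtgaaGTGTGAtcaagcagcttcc
Nkg7: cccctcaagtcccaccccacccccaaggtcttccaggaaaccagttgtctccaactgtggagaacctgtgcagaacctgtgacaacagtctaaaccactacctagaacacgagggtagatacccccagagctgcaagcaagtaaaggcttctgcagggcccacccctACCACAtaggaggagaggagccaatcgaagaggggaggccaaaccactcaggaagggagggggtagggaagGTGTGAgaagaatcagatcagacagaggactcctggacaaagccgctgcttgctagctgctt
Cd8a: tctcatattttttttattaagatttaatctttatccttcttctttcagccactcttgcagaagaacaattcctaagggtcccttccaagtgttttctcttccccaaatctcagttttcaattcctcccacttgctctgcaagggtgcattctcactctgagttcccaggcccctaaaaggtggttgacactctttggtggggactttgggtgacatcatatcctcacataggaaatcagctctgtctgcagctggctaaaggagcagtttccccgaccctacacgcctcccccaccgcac
The RUNX letters were found in Klre1, Klrk1, Klrc1, Ncr1 and Nkg7, which are 5 of the 7 genes, against 18.9% of 27025 genes with a promoter. The T-box letters were found in Klre1, Ncr1 and Nkg7, 3 of 7, against 16.4% of genes. They overlap neither each other nor a RUNX match in the sequences shown, and neither was found in the Cd8a or Eomes window. Such matches describe the letters of these windows, and binding was not measured.

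Whether Cd8 genes and NK genes moved together depended on batch 3. Over all 12 arrays, 11 of the 16 pairs of Cd8a or Cd8b1 with an NK gene passed a permutation test of Pearson's r (100000 resamples, adjusted over 17 pairs). The arrays of batch 3 form a separate cluster, however, so no coefficient over all arrays is given for them. Over the 8 arrays of batches 2 and 1, 0 of 16 pairs passed (exact permutation test), with a median r of -0.016 for Cd8a (-0.542 to 0.655) and -0.241 for Cd8b1 (-0.732 to 0.385). The strongest of these, Cd8b1 with Klrd1, ran in opposite directions (r = -0.732, Spearman's rho = -0.667, exact p = 0.0464, adjusted p = 0.658), and r was -0.109 without the 2 arrays farthest from the median of Cd8b1. With each batch's mean removed, 0 of 16 pairs passed an exact permutation within batches (13824 arrangements). The median r was then 0.376 for Cd8a (-0.208 to 0.78) and 0.008 for Cd8b1 (-0.22 to 0.664). The highest, Cd8a with Ncr1 (r = 0.78, rho = 0.427, exact p = 0.182, adjusted p = 0.582), had r = 0.12 without the 2 farthest arrays. Cd8a and Cd8b1 themselves gave r = 0.57 within batches (rho = 0.259, exact p = 0.18, adjusted p = 0.582), and r = -0.161 without the 2 farthest arrays.

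Among the pairs of NK genes, 1 passed. Klrc1 and Klrd1, the chains of 1 receptor, gave r = 0.916 with batch means removed (rho = 0.839, exact p = 0.000868, adjusted p = 0.0243 over 28 pairs of NK genes), and r = 0.838 without the 2 farthest arrays. With genotype means removed as well, r was 0.819, which did not set this pair apart. Cd8a with Ncr1 then had r = 0.824. The pairs of Cd8a with NK genes ran from -0.016 to 0.824 (median 0.19). Those of Cd8b1 ran from -0.165 to 0.645 (median 0.24). Among the NK pairs (median 0.187, lowest -0.702), Ncr1 with Eomes lay above Klrc1 with Klrd1. These values with genotype means removed were not tested. With only batch means removed, Klrk1 with Klrc1 (r = 0.787, adjusted p = 0.215) and Klrk1 with Klrd1 (r = 0.674, adjusted p = 0.272) did not pass. Klrg1 lay at the other end, with r = -0.593 against Klre1 (adjusted p = 0.349). The test within NK pairs was added after the values had been seen, and that the NK pairs differ from the Cd8 pairs was not tested.

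**Figure D4:**
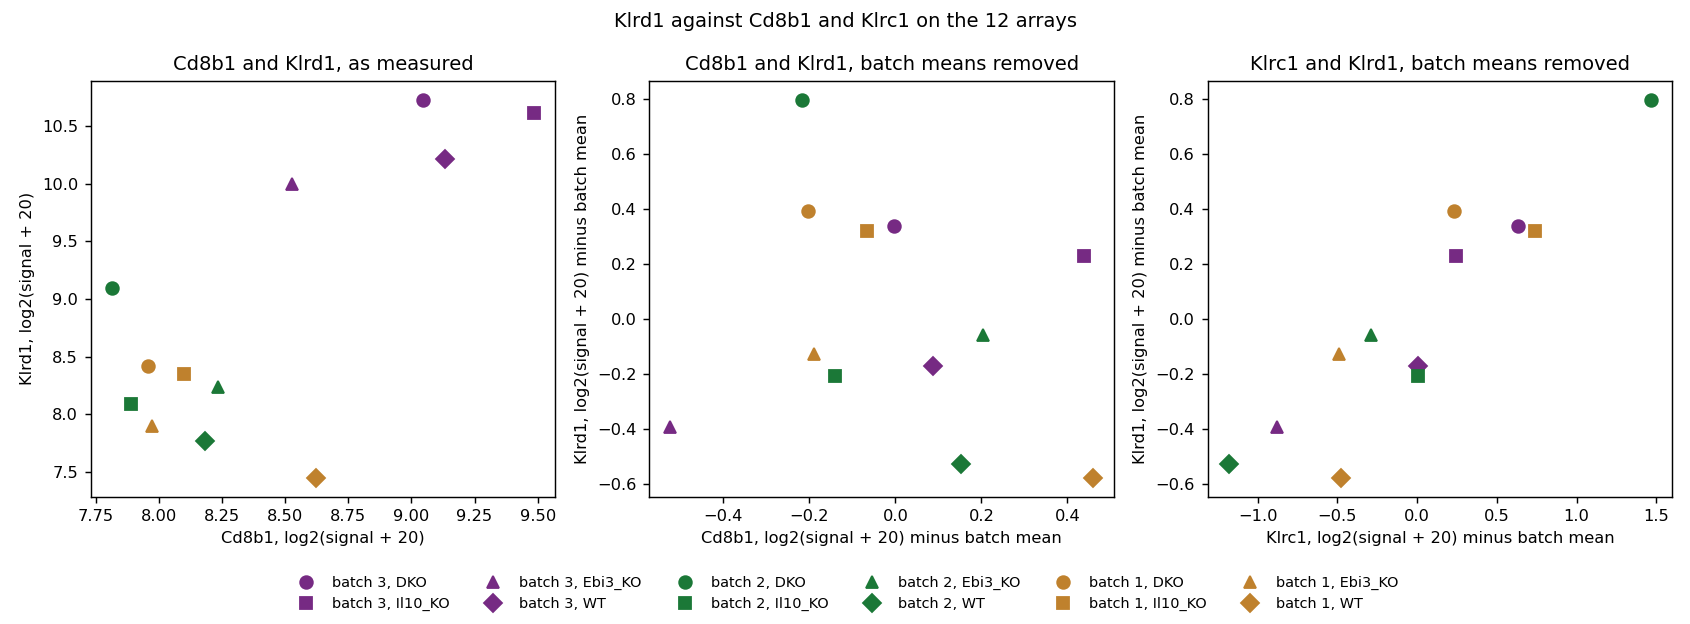
Log2 of signal plus 20 on the 12 arrays, coloured by batch with a symbol for each genotype. Left, Klrd1 (vertical) against Cd8b1 (horizontal) as measured; centre, the same after the mean of each batch was subtracted (r = -0.22); right, Klrd1 against Klrc1 after the same subtraction (r = 0.916).

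Between batches 2 and 1, 3 of 15 member probe sets passed, 1 as higher and 2 as lower, beside 28.1% of all (9.32% as higher and 18.8% as lower). Klrc1 was higher in batch 2 by 1.16 (adjusted p = 0.0172), while Klrk1 (-0.92, adjusted p = 0.0185) and Cd8a 1440164_x_at (-0.83, adjusted p = 0.0247) were lower. The count was 1 in place of 3 when Ebi3_KO replicate 1 or 2 or WT replicate 1 or 2 was left out.

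Turning to genotype, 0 of the 15 probe sets passed in any of 9 tests, namely DKO, Il10_KO and Ebi3_KO against WT, DKO against either single knockout, the average difference by Il10 and by Ebi3 genotype, the interaction, and any difference. Over all tested probe sets limma called 0.0096% in DKO against WT, 0.0064% in Il10_KO against WT, 0.0032% in Ebi3_KO against WT, 0.0064% in DKO against Ebi3_KO and 0.0032% in DKO against Il10_KO. It called 0.0128% for the average difference by Il10 genotype, 0.0032% for that by Ebi3 genotype, 0.0% for the interaction and 0.0096% for any difference. At an unadjusted p under 0.05, 1 member stood in Il10_KO against WT and 1 in the average by Il10 genotype, Klrk1 in both, and 0 in the other tests. Over all tested probe sets 1.98% and 2.22% had such a p in these tests. A fit that included batch passed 0 members as well, while it called 0.0416% of all probe sets in DKO against WT, 0.0384% in Il10_KO against WT, 0.0032% in Ebi3_KO against WT, 0.0192% in DKO against Ebi3_KO and 0.0032% in DKO against Il10_KO. It called 0.064% by Il10 genotype, 0.0064% by Ebi3 genotype, 0.0% for the interaction and 0.0416% for any difference. Of the 15 members, 2 to 5 per test had an unadjusted p under 0.05, with 5 in the average by Il10 genotype (8.62% of all probe sets), in DKO against Ebi3_KO (4.95%) and for any difference (5.91%). These comparisons share arrays, so their values are not independent of each other.

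Among the 10 member genes, only Klrk1 and Klrc1 had both arrays labelled DKO and Il10_KO above those labelled Ebi3_KO and WT in every batch. Of all tested probe sets, 1.08% show that order. The opposite order was shown by 0 members and 1.01% of all. Klrk1 averaged 116.7 ± 70.1 in DKO, 160.1 ± 81.7 in Il10_KO, 65.8 ± 36.0 in Ebi3_KO and 60.2 ± 52.7 in WT (SD, n = 3 each). Its average log2 difference by Il10 genotype was 1.00 ± 0.429 (adjusted p = 1), and the fit that included batch gave 1.00 ± 0.213 (adjusted p = 0.181). Within batches 3, 2 and 1 it was 0.97, 1.46 and 0.59. The lowest Klrk1 signal, 6.5 in WT of batch 2, lay below the 40th percentile, and the average was 0.67 without that array. The Ebi3_KO signal of batch 2, 25.7, was also below the 40th percentile of its array (37.3).

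Klrc1 averaged 329.0 ± 227.4 in DKO, 203.8 ± 137.0 in Il10_KO, 101.2 ± 62.1 in Ebi3_KO and 129.7 ± 149.8 in WT. In batch 1 its Ebi3_KO (33.0) and WT (33.4) signals lay below the 40th percentiles of their arrays, 51.7 and 47.7. The average difference was 1.11 ± 0.567 (adjusted p = 1; adjusted p = 0.291 once batch was fitted), at 0.88, 1.47 and 0.97 within batches 3, 2 and 1. Klrd1 averaged 840.3 ± 728.6 in DKO, 701.6 ± 732.7 in Il10_KO, 500.3 ± 434.3 in Ebi3_KO and 507.2 ± 573.4 in WT. It differed by 0.62 (adjusted p = 0.309 once batch was fitted), at 0.56, 0.59 and 0.71 within the batches, and ranged from 0.22 without Il10_KO replicate 3 to 1.05 without WT replicate 3. Klre1 differed by 0.79 (adjusted p = 0.402 once batch was fitted), at 0.63, 0.49 and 1.24, and ranged from 0.42 to 1.21. All 4 signs were positive in each batch, and none passed the threshold under any of 32 alternative settings.

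The coreceptor probe sets of highest signal did not have the same sign in every batch. Cd8a 1425335_at averaged 278.6 ± 242.6 in DKO, 280.7 ± 324.0 in Il10_KO, 136.3 ± 49.2 in Ebi3_KO and 232.0 ± 202.7 in WT, and its differences by Il10 genotype were 0.98, -0.17 and 0.16 in batches 3, 2 and 1. Cd8b1 averaged 313.9 ± 168.8 in DKO, 389.4 ± 267.2 in Il10_KO, 286.7 ± 58.8 in Ebi3_KO and 395.3 ± 137.2 in WT, with 0.44, -0.36 and -0.27 within the batches. Of the other Cd8a probe sets, 1451673_at was above 0 in all of them (0.11, 0.15 and 0.41), and the other 3 were of mixed sign. Ncr1 (1.26, -0.23 and -0.46) and Klrg1 (0.26, -0.23 and -0.20) were likewise above 0 in batch 3 and below 0 in batches 2 and 1. Whether the NK complex genes and the Cd8 genes differ in their response was not tested. The myeloid sum was well above the other arrays on both those labelled DKO and Il10_KO in batch 3 only. It kept that order in batch 1, where DKO lay close to WT and Ebi3_KO, and not in batch 2. In batch 3 it stood at 36274 (DKO) and 40331 (Il10_KO), beside 22039 (Ebi3_KO) and 21591 (WT). In batch 2 it was 4334 (DKO), 2213 (Il10_KO), 3171 (Ebi3_KO) and 4253 (WT), and in batch 1 it was 2948 (DKO), 3795 (Il10_KO), 2885 (Ebi3_KO) and 2929 (WT). Its part in the values above was not tested. The summed signal of 11 granule and chemokine genes of killer cells kept the order in every batch. In batch 3 it was 17100 (DKO) and 17085 (Il10_KO), beside 10864 (Ebi3_KO) and 11913 (WT). Batch 2 had 11564 and 9237 beside 7609 and 8018, and batch 1 had 6401 and 7480 beside 5659 and 5205. Ccl5 and Runx3 kept it as single genes. The sum of other NK receptors did not, at 9754 (DKO) and 10493 (Il10_KO) beside 11599 (Ebi3_KO) in batch 2.

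**Figure D5:**
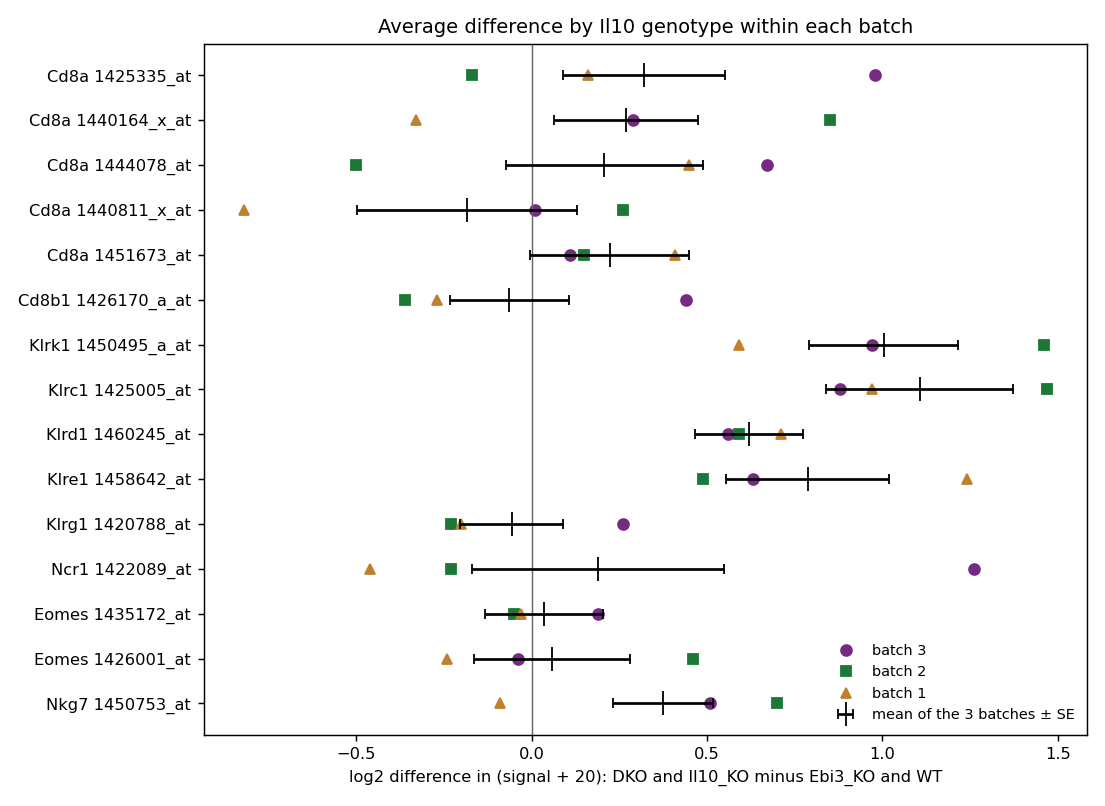
Average log2 difference in signal plus 20 by Il10 genotype (horizontal axis: DKO and Il10_KO minus Ebi3_KO and WT) for the 15 tested probe sets, in each batch (coloured symbols) and as the mean of the 3 batches with its SE from the fit with batch in the model (bars). Klrk1, Klrc1, Klrd1 and Klre1 lie above 0 in all 3 batches.

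For the Ebi3 genotype, the average difference was 0.40 ± 0.204 for Klrg1 (adjusted p = 1; adjusted p = 0.994 once batch was fitted), at 0.56, 0.39 and 0.26 in batches 3, 2 and 1. Klrg1 averaged 5433.1 ± 904.9 in DKO, 4738.9 ± 1940.7 in Il10_KO, 6369.4 ± 1907.8 in Ebi3_KO and 4274.6 ± 766.3 in WT, so its levels by genotype overlapped. Nkg7 had -0.56, -0.19 and -0.43, an average of -0.39 ± 0.317 (adjusted p = 1). In 0 of 15 probe sets did both arrays lacking Ebi3 lie above, or both below, the arrays with Ebi3 in every batch, beside 0.365% and 0.573% of all.

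Genes that act with these receptors were taken from lists chosen by function, and each count is read beside the shares over all probe sets given above. Of 16 tested other NK receptors, 6 passed as higher and 1 as lower in batch 3 against batch 1, and 8 and 2 against batch 2. Cd244a, the receptor 2B4, was higher by 2.38 ± 0.188 and 2.04 ± 0.188, and Klra8, the activating receptor Ly49H, by 2.23 ± 0.354 and 2.03 ± 0.354. Klrb1b, an inhibitory receptor, was lower, at log2 differences of -0.68 and -1.07. Klrc2, Klrc3 and Klra1 did not reach the level needed for testing.

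Among 11 adaptors and signal chains, 6 passed as higher against batch 1 and 7 against batch 2, and 0 as lower. Tyrobp (DAP12), the chain that carries the signal of activating Klr receptors, averaged 5172.8 ± 1973.0 in batch 3, 690.5 ± 400.8 in batch 2 and 557.0 ± 126.6 in batch 1 (SD, n = 4 each). It differed by 3.12 ± 0.249 from batch 1 and 2.94 ± 0.249 from batch 2. Hcst (DAP10), the adaptor of NKG2D, had -0.01 ± 0.161 (adjusted p = 0.966) and 0.52 ± 0.161 (adjusted p = 0.0339). Tyrobp, Fcer1g and Syk, as well as the NK receptor gene Fcgr3 (2.75 and 3.23), are expressed by myeloid cells too, whose markers were higher on the same arrays.

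Of 11 granule and chemokine genes of killer cells, 4 passed as higher against batch 1, and 5 passed as higher and 1 as lower against batch 2. Gzma (granzyme A) averaged 2971.9 ± 1103.5 in batch 3, 441.7 ± 137.7 in batch 2 and 432.6 ± 208.1 in batch 1, while Gzmb differed by 0.25 (adjusted p = 0.632) and 0.26 (adjusted p = 0.664). The chemokine gene Ccl5 rose by 1.88 and 1.25. It is also the 1 gene of all these lists that passed by genotype: once batch was fitted, its average difference by Il10 genotype was 0.69 ± 0.104 (adjusted p = 0.0274), at an adjusted p of 1 without batch.

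Transcription factors and cytokine receptors of CD8 T and NK cells split, with 2 of 12 higher and 4 lower in batch 3 against batch 1 and the same numbers against batch 2. Tbx21 (T-bet), the T-box factor that works beside Eomes, was higher by 0.68 (adjusted p = 0.0224) and 1.05 (adjusted p = 0.00271), and Zeb2, which acts downstream of T-bet, by 1.53 and 1.24. Nfil3, needed for NK cell development, was lower (-1.44 and -2.77), as was Tox (-0.76 and -0.66). For Nfil3, batches 3 and 1 overlapped. WT replicate 1 read 248.2, below the batch 3 range of 371.3 to 586.1, and the other batch 1 arrays read 1695.0 to 2680.2. Runx3, which maintains CD8 and silences CD4, did not pass (adjusted p = 0.987 and 0.796). Of 4 tested ligand genes, Cdh1 (E-cadherin, bound by KLRG1) was higher by 2.42 and 2.26, and B2m, the light chain of MHC class I, had -0.11 and -0.06 and did not pass.

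The patterns most like those of single members were sought among 19026 tested probe sets of other genes whose mean signal lay above the average array median, as a description. With batch means removed, the nearest to Klrd1 were Hsd17b7 (r = 0.943) and Myadm (r = 0.938), and 1.84% of candidates exceeded r = 0.7. The nearest to Cd8b1 were Ppp1ca (r = 0.974) and Pole4 (r = 0.962), with 2.78% of candidates over 0.7. The nearest to Klrg1 were Ptrhd1 (r = 0.956) and Rfc1 (r = 0.934), with 1.2% over 0.7, and Acyp1 came at r = 0.901. Over all 12 arrays, differences between batches included, Tyrobp and Gzma came first for Klrd1, Serf2 and Gosr2 for Cd8b1, and Acyp1 and Ago4 for Klrg1. Acyp1 was thus among the 5 nearest to Klrg1 both ways, while the 5 nearest to Klrd1 and to Cd8b1 were different genes. Klrd1 was added to this search after its values had been seen.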

How the data were processed

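RNA of 12 Treg samples (extracted on columns and amplified in 2 cycles, per the labels' protocols) was measured on Affymetrix arrays. Per the submitters' processing notes the authors used MAS5 and Partek 6.4. The deposited values are on a natural log scale: their exponential minus 20 gives multiples of 0.1 with a 2% trimmed mean of 500 on every array, as read from the values, so signals were recovered this way. A log2 scale had been planned for, and log2 of signal plus 20 was tested. Of 45101 probe sets, 64 controls were left out; 34945 have 1 gene symbol, 932 several and 9160 none. Names come from the platform annotation, updated through RefSeq by gene ID (34741 matched), and the number of arrays limits the precision.

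The test took in probe sets with a signal at or over the 40th percentile of an array on 3 arrays or more. limma 3.58.1 (R 4.3.3; lmFit, eBayes with a trend, all arrays in 1 fit, Benjamini-Hochberg, threshold 0.05) tested genotype without a batch term, and batch with genotype in the model. Code was tested on simulated data. Same-numbered arrays share a labelled batch, and their deviations from genotype means correlated in all 18 pairs (r = 0.325 to 0.664), so the number was fitted as a block too. Correlations used Python 3.11.15. All member probe sets are named; of the other lists, genes past the threshold or of high signal were eligible. Alternatives were the filter, offset, normalization, variance trend, batch term and leaving out each array. The members, lists and motifs were chosen with earlier results of these data known.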

Additional observations from a re-analysis of the deposited data

Results flagged for a closer look

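In groups of 4 arrays of a batch, 3 of 48 groups examined held 1 array far from the others by Dixon's criterion, and chance gives about 1 in 20. The Cd8a probe set 1444078_at read 150.8 in Ebi3_KO replicate 3, while the other batch 3 arrays read 386.0 to 423.3. The Cd8a probe set 1451673_at read 89.7 in Il10_KO replicate 1, and 40.9 to 42.6 on the other batch 1 arrays. The Klrc1 probe set 1426182_a_at, below the 40th percentile on every array, read 33.6 in Il10_KO replicate 1.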

How the results depend on the processing

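The batch 3 counts kept within 9 to 12 members against batch 1 and 10 to 14 against batch 2, where 11 passed in each, over all alternatives run; 9 probe sets passed in each comparison whichever of the 12 arrays was left out. Between batches 2 and 1 the count of 3 became 1 with batch as the only factor, and ranged from 1 to 3 when 1 replicate was left out. The 11 pairs of Cd8 and NK genes past the threshold became 0 with batch means removed, 0 without the arrays of batch 3 and 0 without the 2 arrays farthest from the median; with 1 replicate left out they numbered 10 to 13. Cd8a 1440164_x_at, at -0.25 against batch 1, turned to 0.1 after quantile normalization, and ranged from -0.45 to 0.04 with 1 replicate left out. Quantile normalization moved the median of all probe sets against batch 1 from -0.156 to 0.036, and the split of higher and lower calls there from 3180 and 5777 to 4223 and 3884; between batches 2 and 1 it went from 2912 and 5872 to 3793 and 3703. With the replicate block, 0 members passed by genotype as before, while calls over all probe sets went from 4 to 20 by Il10 genotype, 1 to 2 by Ebi3 genotype, 3 to 13 in DKO against WT, 2 to 12 in Il10_KO against WT, 2 to 6 in DKO against Ebi3_KO and 3 to 13 for any difference. The causes were not tested. Ncr1 and the lower Cd8a probe sets lie near the 40th percentile, where signal over background limits the comparison. Klre1 and Eomes 1426001_at reached that percentile on 9 arrays each, and Klrk1 and Klrc1 1425005_at on 10 each. The limit therefore bears on them too.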
